A study of Mus musculus with 10 samples.

Results

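Genes that carry a cell through mitosis were followed in mouse pancreatic tumours before and after doxycycline. The set was a given list of 58 genes out of the 23924 usable gene symbols in the tables, and all 58 were found by symbol. They were sorted by role into 8 sub-processes: mitotic entry, the spindle checkpoint with chromatid separation, the chromosomal passenger complex, the kinetochore, spindle motors, cytokinesis, condensin, and chromosome structure with proliferation markers. The tumours were orthotopic transplants, grown in athymic nude hosts, which have no thymus and therefore few T cells. They belonged to 2 models, named KrasT and MycT. Hosts either were left untreated (0 days) or drank doxycycline at 100 ug/ml in water with 2.5% sucrose for 2 weeks. KrasT had 3 tumours in either group, and MycT had 2 in either group. The sources do not give the promoter of either transgene, the cells it is active in, the number of tumour lines or the age of the hosts. Sucrose is named only for the doxycycline mice, so drug, sugar and any change of the transgene under the drug cannot be told apart.

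Mitosis begins when CDK1 joined to a B-type cyclin phosphorylates many substrates, with help from the Aurora and Polo kinases. Condensin compacts the chromosomes, kinetochores built on CENP-A chromatin attach them to spindle microtubules, and the spindle checkpoint holds the anaphase-promoting complex back until every pair is attached. That complex, a ubiquitin ligase, then marks securin and cyclin B for destruction, chromatids separate, and the centralspindlin complex directs cytokinesis. Many of these genes are transcribed in late S, G2 and M phase through the MuvB complex with B-MYB and FOXM1, which acts at promoter elements called CHR, often beside CCAAT boxes bound by NF-Y. In a bulk tumour their messages are read as a sign of dividing cells. Fewer dividing cells and less of these RNAs per cell cannot be told apart in such samples.

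Values were FPKM, fragments scaled to gene length and library size, and changes were taken as doxycycline minus untreated on the log2(FPKM + 1) scale, which understates changes of low genes. Read totals are unknown. An estimate from the steps between low values put depth at 0.755 to 1.19 of untreated library 1 in KrasT and at 0.62 to 1.0 of untreated library 2 in MycT. Untreated libraries had the higher FPKM totals, at 789672 to 1018968 against 513949 to 569272 in KrasT and 1126800 to 1517332 against 546008 to 557227 in MycT. Rn45s, the ribosomal RNA precursor, stood at 17238.5 FPKM in KrasT doxycycline library 1 and at 20880 FPKM in MycT doxycycline library 2, against at most 2231 elsewhere. KrasT untreated library 1 correlated with the other untreated KrasT libraries at 0.911 and 0.919 across genes, and those correlated with each other at 0.982. One untreated MycT column carries a number found in no sample title, and it is called the unnumbered library here. In the GRCm38 annotation, several members overlap a protein-coding gene on the opposite strand, among them Ccna2 (Exosc9), Cdc20 (Elovl1), Kif20a (Cdc23), Kif4 (Pdzd11), Ncapg (Lcorl) and Prc1 (Rccd1). Pbk, Mad2l1 and Racgap1, beside Ccnb1 and Hmgb2, have near-identical pseudogenes. Values of these genes are uncertain to that extent, since reads may be shared.

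In KrasT tumours the summed level of each of the 8 sub-processes was lower in every doxycycline library than in every untreated one. Summed over the 58 genes, the level was 688, 317 and 399 FPKM in untreated libraries 1, 2 and 3, and 131, 144 and 99.0 FPKM in doxycycline libraries 1, 2 and 3, so the groups did not overlap. The mean of a member was 1.02 to 7.70 times as high in untreated as in doxycycline tumours, with a median of 3.82 times. As a share of total FPKM, the summed level was 0.0675%, 0.0359% and 0.0505% untreated and 0.0233%, 0.0281% and 0.0174% treated. This share did not overlap either, but it fell less than the FPKM sum, because untreated libraries had higher totals. The log2 change was negative for 57 of 58 members, as it was for 54.7% of genes tested, and its median was -1.24 against -0.10 over all genes tested. All 3 doxycycline libraries lay below all 3 untreated ones for 50 members, a pattern seen in 23.0% of all genes tested. Under the limma test, 23 members fell and 0 rose, where 8.25% of the 12696 genes tested fell and 8.46% rose. Of the 58 members, 51 reached 1 FPKM in 3 or more libraries and were tested. The 7 others were Ttk, Espl1, Cenpe, Cenpf, Kif15, Kif18a and Ncapg. Of those tested, 8 were below 1 FPKM in every doxycycline library and so passed only through their untreated values. With no filter on low values, 14 of the 58 members were called lower, against 4.55% of 18880 genes.

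The number of KrasT calls depended on single libraries. Without untreated library 1, 31 members were called, against 17.6% of all genes called lower. Without untreated library 2 the count was 4 (1.21% of genes) and without untreated library 3 it was 1 (0.386%). Without doxycycline libraries 1, 2 and 3 the counts were 10 (3.1%), 9 (2.16%) and 0 (0.339%). Untreated library 1 was the highest of its group for 50 of the 58 members, and doxycycline library 3 was the lowest of its group for 46. None of the 23 calls held in all 6 of these fits, and Ube2c held in 5. Median-ratio scaling, which moved the median change of all genes by 0.24, left 14 members called (3.88% of genes), and under it the share of rises among all called genes went from 50.6% to 72.6%. Quantile normalization gave 37 called members (4.1%), and a mean FPKM of at least 5 gave 10 of the 20 members it tested (9.89%). The joint limma fit of all 10 libraries also called 23 members lower in KrasT, against 9.09% of genes, and 17 of them were called in both fits. Under both scalings the 23 called members stayed negative, as did the median over the 58.

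**Figure D1:**
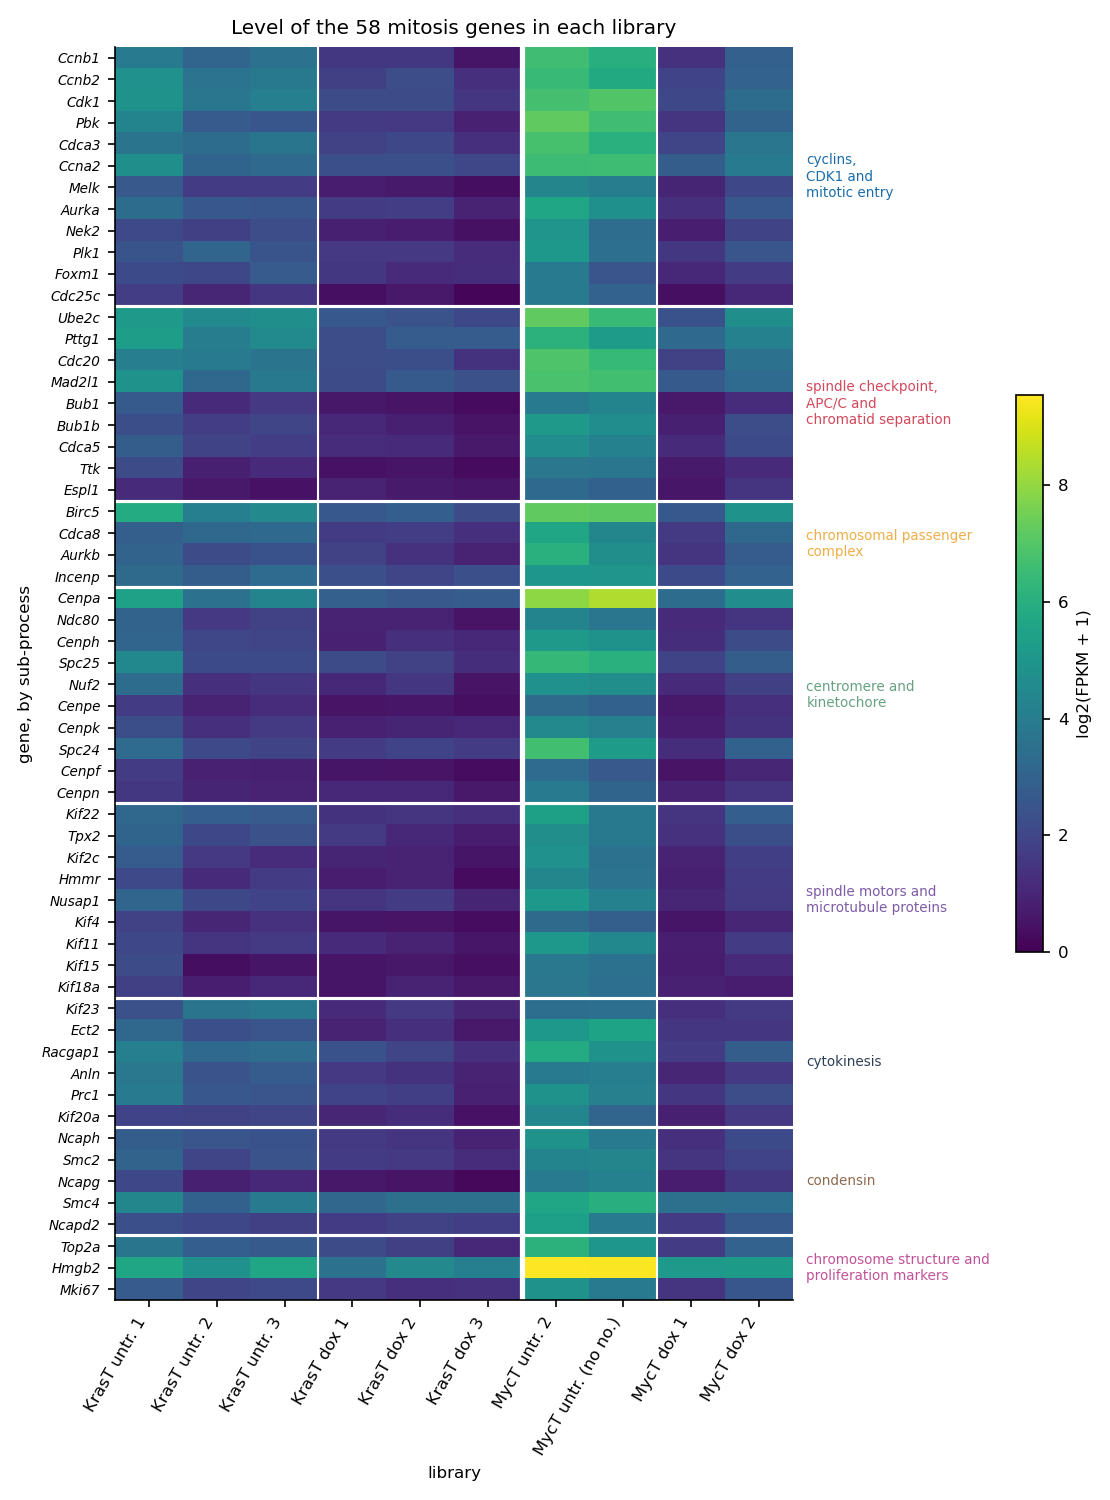
Level of the 58 mitosis genes, in rows grouped by sub-process, in each of the 10 libraries, in columns; colour gives log2(FPKM + 1). The untreated MycT columns are the brightest, the doxycycline columns of both models are dark, and Hmgb2 is the brightest row.

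In MycT tumours, too, each of the 8 sub-process sums was lower in both doxycycline libraries than in both untreated ones. The summed level of the 58 genes was 3550 FPKM in untreated library 2 and 2841 FPKM in the unnumbered untreated library. It was 155 and 361 FPKM in doxycycline libraries 1 and 2. All 58 members had both doxycycline values below both untreated values, which 32.8% of all genes tested showed. The mean was 4.13 to 27.4 times as high in untreated as in doxycycline tumours, with a median of 10.8 times. As a share of total FPKM, the summed level was 0.315% and 0.187% untreated and 0.02785% and 0.0662% treated. This share, too, fell less than the FPKM sum. All 58 log2 changes were negative, against 48.4% over all genes tested. The median log2 change was -2.83, against 0.04 over all genes tested. With 2 tumours in each group, limma called 0 of the 58 members, with adjusted p between 0.0521 and 0.11, and the background was 0.0312% of 12834 genes called lower. All 58 members had an unadjusted p under 0.05, which 33.4% of genes tested had. A joint limma fit of all 10 libraries, which shares 1 estimate of spread between the tables, called all 51 members it tested lower, against 12.3% of 12073 genes. The members' adjusted p was 0.00413 to 0.0281 there and 0.0521 to 0.383 over the other alternatives.

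The MycT doxycycline tumours differed from each other. Library 2 was the higher of the pair for 56 of the 58 members, Smc4 and Kif18a being the exceptions. It is also the library with high Rn45s, and the part of that in the result was not tested. Untreated library 2 was the higher of its pair for 48 members.

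**Figure D2:**
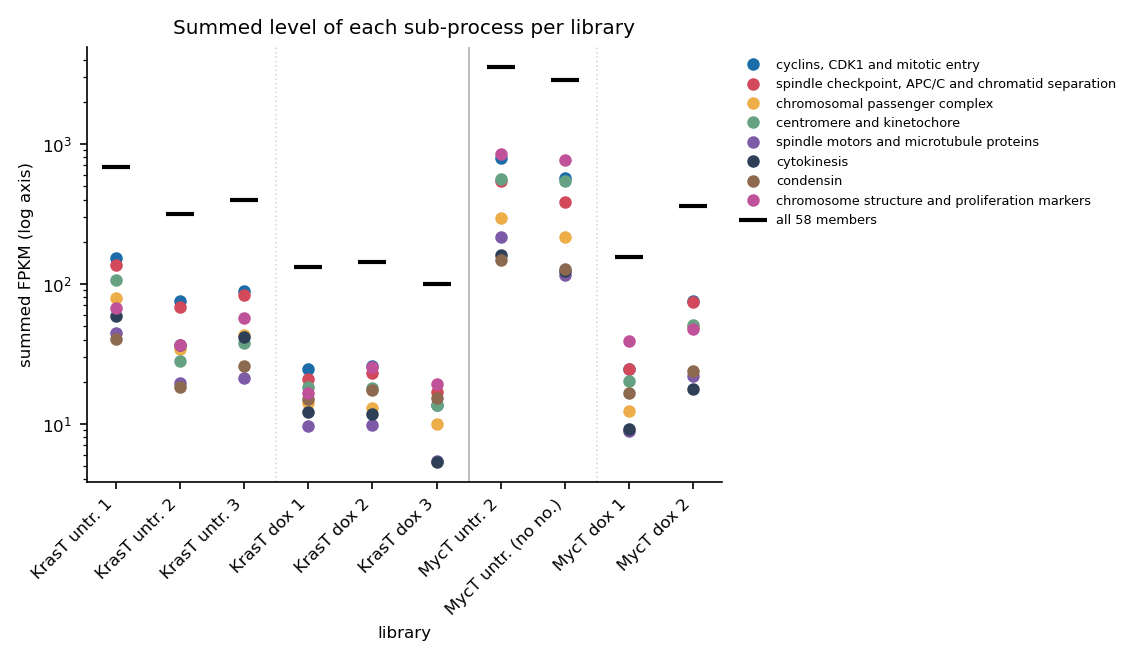
Summed FPKM of each sub-process (coloured points) and of all 58 members (black bars) in each library, on a log axis. The KrasT sums are 317 to 688 FPKM in untreated and 99.0 to 144 FPKM in doxycycline libraries, and the MycT sums are 2841 and 3550 against 155 and 361 FPKM.

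Promoters of the members were searched for the letters of the 2 elements named above, to show what sequence features the genes share. Windows of 300 bases, from 250 before to 50 after each RefSeq transcript start on GRCm38.p6, were found for 48 of the 58 genes. No window was used for Aurkb, Ccna2, Cdc25c, Foxm1, Incenp, Kif20a, Pbk, Smc4, Spc24 and Tpx2. The windows below are printed 5′ to 3′ on the strand of the gene, with the matches in capitals. They belong to the called KrasT members with the most negative changes, and only where a window held both elements. Ccnb1, with no CHR match, and Birc5, with neither element, fell more than Kif23 in KrasT and were passed over. Ube2c (chr2:164769679-164769978, plus strand) had the lowest adjusted p of the members in KrasT. Ccnb2 (chr9:70421505-70421804, minus strand) and Cdk1 (chr10:69352863-69353162, minus strand) make up the core mitotic kinase. Kif23 (chr9:61946750-61947049, minus strand) had near equal changes in both models.
Ube2c: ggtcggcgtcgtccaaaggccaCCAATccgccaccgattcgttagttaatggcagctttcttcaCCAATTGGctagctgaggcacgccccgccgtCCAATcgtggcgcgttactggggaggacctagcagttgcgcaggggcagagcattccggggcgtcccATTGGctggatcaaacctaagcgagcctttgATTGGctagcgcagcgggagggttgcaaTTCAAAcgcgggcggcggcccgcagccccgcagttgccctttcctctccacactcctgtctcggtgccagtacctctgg
Ccnb2: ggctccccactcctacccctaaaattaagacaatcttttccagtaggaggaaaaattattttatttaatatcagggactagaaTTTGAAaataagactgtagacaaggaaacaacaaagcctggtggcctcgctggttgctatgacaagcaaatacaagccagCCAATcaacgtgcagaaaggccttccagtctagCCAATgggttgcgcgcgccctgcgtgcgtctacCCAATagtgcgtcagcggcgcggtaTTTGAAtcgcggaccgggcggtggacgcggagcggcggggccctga
Cdk1: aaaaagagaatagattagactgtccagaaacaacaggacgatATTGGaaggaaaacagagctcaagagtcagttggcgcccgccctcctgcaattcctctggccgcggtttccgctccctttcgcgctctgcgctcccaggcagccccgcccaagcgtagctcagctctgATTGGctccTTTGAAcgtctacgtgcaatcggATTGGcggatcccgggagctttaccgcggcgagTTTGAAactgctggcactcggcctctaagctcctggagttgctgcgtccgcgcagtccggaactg
Kif23: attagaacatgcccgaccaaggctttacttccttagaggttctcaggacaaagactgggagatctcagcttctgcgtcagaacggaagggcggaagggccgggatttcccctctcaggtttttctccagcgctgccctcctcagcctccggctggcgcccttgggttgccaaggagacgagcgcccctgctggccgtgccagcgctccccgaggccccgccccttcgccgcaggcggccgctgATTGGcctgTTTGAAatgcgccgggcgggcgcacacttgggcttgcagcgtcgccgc
The capitals mark the box CCAAT, written ATTGG where it lies on the other strand. They also mark the CHR letters, which are TTTGAA, written TTCAAA on the other strand, or else TTCGAA, a word that reads the same on both strands. The elements were counted separately, so matches may overlap, as where the second CCAAT of Ube2c shares bases with ATTGG. Ube2c has 6 CCAAT matches and 1 CHR match, Ccnb2 and Cdk1 have 3 and 2 each, and Kif23 has 1 of each.

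CCAAT was found in 75.0% of the 52 windows of members and in 37.4% of all 32851 windows of the same length in the RefSeq promoter table, which holds more genes than the expression tables. The CHR letters were found in 71.2% and 19.2%, and both in 61.5% and 7.52%. By gene, 30 of the 48 matched members had both in a window. Their median log2 change was -1.33 in KrasT and -3.02 in MycT, beside -1.25 and -2.81 for the 18 matched members without both. In KrasT, 14 of the 30 and 7 of the 18 were called lower, beside 8.25% of all genes tested. No test compared the members with and without both elements. By sub-process, windows with both ranged from 36.4% of 11 kinetochore windows to 100% of the 3 windows of Mki67, Top2a and Hmgb2. A match describes these letters only and is not a measured binding site.

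**Figure D3:**
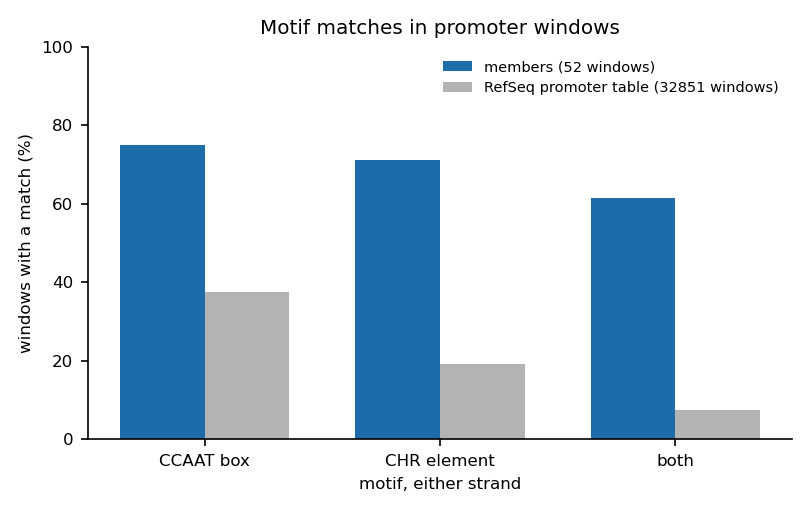
Share of 300-base promoter windows with a CCAAT box, a CHR element or both, for members (blue, 52 windows) and all genes of the RefSeq promoter table (grey, 32851 windows). Both elements occur in 61.5% of member windows and 7.52% of all windows.

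All 12 genes of mitotic entry were tested in KrasT. Of these, 8 fell, where 8.25% of all genes tested did. In the joint fit 5 were called lower, against 9.09% of genes. The median log2 change was -1.43 in KrasT and -3.22 in MycT. Ccnb1, cyclin B1, stood at 14.4, 7.61 and 11.02 FPKM in the untreated KrasT libraries and at 1.90, 1.93 and 0.457 FPKM after doxycycline. It fell by 2.33 ± 0.39 (SE) on the log2 scale in KrasT, with a limma adjusted p of 0.016. The MycT values were 98.4 and 62.5 FPKM untreated against 1.54 and 6.61 FPKM after doxycycline, and the log2 change was -4.18 ± 0.63 (SE). All treated values of Ccnb1 were below all untreated ones in both tables. Ccnb2, cyclin B2, stood at 27.1, 11.3 and 13.4 FPKM untreated and 2.51, 3.74 and 1.46 FPKM treated in KrasT, a fall of 2.31 ± 0.41 (SE; limma adjusted p = 0.0181). Cdk1, the catalytic partner of both cyclins, stood at 27.8, 12.4 and 16.3 FPKM untreated and 3.55, 3.63 and 1.85 FPKM treated in KrasT. Its fall was 2.27 ± 0.38 (SE; limma adjusted p = 0.016). In MycT, Cdk1 went with the cyclins, at 104 and 122 FPKM untreated and 3.22 and 9.36 FPKM treated.

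The other called entry genes were Cdca3, Melk, Aurka, Nek2 and Plk1. Melk and Nek2 were below 1 FPKM in every treated KrasT library and passed the filter only through their untreated values, and Melk was not called without the filter. In the joint fit the limma adjusted p was 0.0574 for Aurka, 0.0606 for Nek2 and 0.0838 for Plk1, so these were not called there. Cdca3, which promotes destruction of the CDK1 inhibitor WEE1, stood at 9.47 to 11.96 FPKM untreated and 1.49 to 3.18 FPKM treated in KrasT. Its change was -1.84 (limma adjusted p = 0.0149). Plk1, the Polo kinase, had the smallest called change of the entry genes, -1.24 (limma adjusted p = 0.0352), and Aurka, the Aurora kinase of spindle poles, changed by -1.40 (limma adjusted p = 0.0416). Plk1 was also among the smaller changes in MycT, at 32.6 and 10.3 FPKM untreated against 1.94 and 4.76 FPKM treated.

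Pbk, a kinase made mainly in dividing cells, had the most negative MycT change of all 58 members. In the MycT table it stood at 147 and 95.9 FPKM untreated and 1.71 and 7.15 FPKM treated, a log2 change of -4.67 ± 0.63 (SE) and a ratio of means of 27.4. In KrasT its untreated libraries were uneven, at 19.0, 5.75 and 4.81 FPKM, against 2.07, 1.99 and 0.815 FPKM treated, and the change of -1.85 had a limma adjusted p of 0.0537. Foxm1, the transcription factor of the late cell cycle, had the least negative MycT change of all members. It stood at 13.7 and 4.79 FPKM untreated against 1.12 and 2.18 FPKM treated in MycT, a change of -1.83 ± 0.58 (SE). In KrasT it stood at 3.42, 3.22 and 5.75 FPKM against 1.90, 1.18 and 1.35 FPKM, a change of -1.03 with a limma adjusted p of 0.0545. Cdc25c, the phosphatase that removes inhibitory phosphates from CDK1, had the smallest KrasT change of the entry genes, -1.01 (limma adjusted p = 0.0505). It was below 1 FPKM in each treated KrasT library. Ccna2, cyclin A2, had a KrasT change of -1.45 with a limma adjusted p of 0.0788, and untreated library 1 at 25.9 FPKM was far above the other untreated values of 7.34 and 8.54 FPKM.

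Of the 9 genes of the checkpoint and chromatid separation, 7 were tested in KrasT. Of these, 4 fell, where 8.25% of all genes tested did. The joint fit called 5 lower, against 9.09% of genes. Bub1b was called only in the first fit, and Bub1 and Mad2l1 only in the joint fit. The medians over all 9 were -1.35 in KrasT and -3.20 in MycT. Ube2c, the ubiquitin-conjugating enzyme of the anaphase-promoting complex, stood at 34.3, 23.0 and 25.6 FPKM untreated against 5.18, 4.398 and 3.17 FPKM treated in KrasT. This was the largest KrasT change of all members, -2.45 ± 0.28 (SE), with the lowest limma adjusted p, 0.00753. The call was lost without doxycycline library 3. In MycT it stood at 148 and 84.7 FPKM untreated against 4.29 and 25.9 FPKM treated, a change of -3.24 ± 0.86 (SE). The treated MycT tumours differed widely here, and the higher lay within the range of the untreated KrasT tumours. Ube2c overlaps Tnnc2 on the opposite strand, and no source used here says whether counting used strand. Cdc20, the activator of the complex at anaphase, stood at 15.8, 13.7 and 11.9 FPKM untreated and 3.82, 3.89 and 1.66 FPKM treated in KrasT, a change of -1.89 ± 0.33 (SE; limma adjusted p = 0.0171). The MycT values were 118 and 82.3 FPKM untreated and 2.56 and 11.1 FPKM treated.

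Securin and separase, the inhibitor and the protease that cuts cohesin, stood at different levels in KrasT, and no test compared them. Pttg1, securin, stood at 38.6, 15.3 and 22.9 FPKM untreated against 3.82, 5.80 and 5.84 FPKM treated in KrasT, a change of -2.04 ± 0.38 (SE; limma adjusted p = 0.0196). In the MycT table it stood at 69.8 and 36.5 FPKM untreated against 8.57 and 17.1 FPKM treated, a change of -1.97 ± 0.52 (SE). Pttg1 had the smallest ratio of means of any member in MycT, 4.13. Espl1, separase, was the only member with no negative KrasT change. It stood at 1.18, 0.552 and 0.379 FPKM untreated against 0.936, 0.621 and 0.510 FPKM treated in KrasT, so its groups overlapped at low levels and it was not tested. In MycT, Espl1 stood at 8.58 and 6.88 FPKM untreated against 0.479 and 1.80 FPKM treated, a change of -2.095 ± 0.45 (SE).

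The remaining genes of this list include the checkpoint proteins that sense unattached kinetochores. Bub1b, the checkpoint protein BUBR1, was called at -1.20 (limma adjusted p = 0.0324), but its limma adjusted p in the joint fit was 0.0587. Mad2l1, which encodes MAD2, stood at 28.3, 8.43 and 13.5 FPKM untreated and 3.64, 5.504 and 4.13 FPKM treated in KrasT, a change of -1.56 with a limma adjusted p of 0.0542. It stood at 111 and 99.1 FPKM in untreated and 5.59 and 9.12 FPKM in treated MycT tumours. Bub1, a checkpoint kinase, had a KrasT ratio of means of 7.65, near the highest of any member, but its untreated values of 5.52, 1.24 and 1.96 FPKM were uneven and its limma adjusted p was 0.0669. Ttk, the kinase MPS1, stood at 0.228 to 0.44 FPKM in the treated KrasT libraries and at 12.8 and 12.3 FPKM in untreated MycT tumours. Cdca5, sororin, which protects cohesin, had a KrasT change of -1.15 (limma adjusted p = 0.0693).

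All 4 genes of the chromosomal passenger complex, the Aurora B machine that corrects wrong attachments, had non-overlapping groups in both tables. Treated values below all untreated ones were seen in 23.0% of genes tested in KrasT and 32.8% in MycT. Of the 4 genes, 2 fell in KrasT, against 8.25% of all genes tested. Birc5, survivin, stood at 57.1, 16.2 and 21.2 FPKM untreated against 5.24, 6.21 and 3.54 FPKM treated in KrasT, a change of -2.25 ± 0.49 (SE; limma adjusted p = 0.0275). In MycT it stood at 147 and 139 FPKM untreated against 5.21 and 28.2 FPKM treated. Cdca8, borealin, stood at 6.39, 8.28 and 8.67 FPKM untreated against 2.27, 2.30 and 1.5 FPKM treated in KrasT, a change of -1.54 ± 0.27 (SE; limma adjusted p = 0.017). Unlike most members, Cdca8 was lowest of the untreated KrasT values in library 1. Aurkb, the kinase itself, had a KrasT change of -1.16 (limma adjusted p = 0.0709), and Incenp, its scaffold, one of -0.94 (limma adjusted p = 0.0584). In MycT, Aurkb stood at 65.5 and 25.2 FPKM untreated against 1.68 and 5.87 FPKM treated, and Incenp at 31.3 and 30.9 FPKM against 3.47 and 7.07 FPKM.

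The kinetochore list holds 10 genes, of which 8 were tested in KrasT. None was called there by limma, where 8.25% of all genes tested were called lower. An unadjusted p under 0.05 was found for 4 of the 8, beside 4311 of the 12696 genes tested in KrasT. In the joint fit 3 were called lower in KrasT, against 9.09% of genes. The median change was -0.91 in KrasT and -3.26 in MycT, and the difference between models was called for none of the 8, with a lowest limma adjusted p of 0.0689. Cenpa, the histone H3 variant that marks centromeres, stood at 42.6, 10.8 and 18.7 FPKM untreated and 6.597, 5.31 and 5.88 FPKM treated in KrasT. Its KrasT change was -1.65 ± 0.48 (SE; limma adjusted p = 0.0584), and untreated library 1 was again the highest. The MycT values were 244 and 334 FPKM untreated against 9.49 and 24.3 FPKM treated, a change of -4.14 ± 0.53 (SE). The treated KrasT values lay within a narrow range while the untreated ones spread widely.

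The NDC80 complex, which grips the microtubule, consists of Ndc80, Nuf2, Spc24 and Spc25. Spc24 stood at 9.15, 3.27 and 2.90 FPKM untreated against 2.27, 2.76 and 2.19 FPKM treated in KrasT, a change of -0.70 with a limma adjusted p of 0.272. In the MycT table it stood at 99.5 and 37.6 FPKM untreated against 1.39 and 6.74 FPKM treated, a change of -3.86 ± 0.77 (SE). Ndc80 had the largest KrasT change of the 4, -1.38 (limma adjusted p = 0.0646). Nuf2 and Spc25 overlapped between the KrasT groups, with untreated library 1 at 9.24 and 21.1 FPKM and the other untreated libraries at 1.504 to 1.83 and 3.41 to 3.42 FPKM. Cenpn, which recognises CENP-A nucleosomes, stood at 1.89, 0.965 and 0.896 FPKM untreated and 1.15, 1.14 and 0.586 FPKM treated in KrasT, so the groups overlapped. Its KrasT change of -0.19 became 0.009 without untreated library 1. Cenpe, a kinesin of the kinetochore, and Cenpf, a large kinetochore protein, averaged 1.47 and 1.30 FPKM in untreated KrasT tumours and 7.84 and 7.20 FPKM in untreated MycT tumours.

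Of the 9 spindle motors and microtubule proteins, 7 were tested in KrasT and 2 of these fell, against 8.25% of all genes tested. The medians over all 9 were -0.98 in KrasT and -2.77 in MycT. Kif22, a kinesin on chromosome arms, stood at 8.35, 6.14 and 5.69 FPKM untreated and 1.65, 1.79 and 1.46 FPKM treated in KrasT, a change of -1.54 ± 0.26 (SE; limma adjusted p = 0.016). Tpx2, which activates Aurora A on the spindle, was called at -1.36 (limma adjusted p = 0.0496). In the joint fit its limma adjusted p was 0.0504, so it was not called there. Kif11, the motor that drives spindle poles apart, had the largest MycT change of the list. It stood at 33.2 and 20.9 FPKM untreated against 0.737 and 2.17 FPKM treated in MycT, a change of -3.54 ± 0.47 (SE). In KrasT it stood at 3.14, 1.69 and 2.08 FPKM untreated and 1.18, 0.920 and 0.507 FPKM treated, with a limma adjusted p of 0.0897. Nusap1, a microtubule bundler, had a MycT change of -3.32 and Kif4, a chromosome-bound kinesin, -2.33. Nusap1 overlaps Oip5 on the opposite strand. Kif15 and Kif18a, motors that act on spindle microtubules, overlapped between the KrasT groups: Kif15 was at 3.71 FPKM in untreated library 1 and at 0.271 to 0.526 FPKM in the other KrasT libraries.

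All 6 genes of cytokinesis were tested in KrasT, where 5 fell, against 8.25% of all genes tested. In the joint fit 4 were called lower, against 9.09% of genes. The median change was -1.68 in KrasT and -2.66 in MycT. Kif23, the motor of centralspindlin, stood at 4.10, 11.8 and 13.6 FPKM untreated against 1.19, 2.01 and 1.03 FPKM treated in KrasT, a change of -2.05 ± 0.45 (SE; limma adjusted p = 0.0285). In MycT it stood at 9.90 and 10.2 FPKM untreated against 1.47 and 2.08 FPKM treated, a change of -1.998 ± 0.34 (SE). Its untreated levels were similar in the 2 models, and library 1 was its lowest untreated KrasT value, as for Cdca8. Its partner Racgap1 stood at 16.2, 8.51 and 9.77 FPKM untreated and 4.24, 2.94 and 1.53 FPKM treated in KrasT, a change of -1.69 with a limma adjusted p of 0.031. Ect2, the exchange factor that centralspindlin recruits, stood at 8.05, 4.07 and 4.68 FPKM untreated and 0.867, 1.49 and 0.592 FPKM treated in KrasT, a change of -1.71 with a limma adjusted p of 0.0213. In MycT, Ect2 stood at 32.9 and 45.2 FPKM untreated and 1.82 and 1.88 FPKM treated, a change of -3.80 ± 0.35 (SE). Anln, the actin binder anillin, and Kif20a, a kinesin of the central spindle, were called at -1.68 and -1.03, and Prc1, which bundles its microtubules, was not, at -1.499 with a limma adjusted p of 0.0786. Kif20a was not called in the joint fit (limma adjusted p = 0.0913).

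Of the 5 condensin genes, 4 were tested in KrasT and 1 of these fell, against 8.25% of all genes tested. The medians over all 5 were -0.89 in KrasT and -2.63 in MycT. Ncaph, the kleisin of condensin I, stood at 6.08, 4.66 and 4.26 FPKM untreated against 2.04, 1.76 and 0.917 FPKM treated in KrasT, a change of -1.24 ± 0.29 (SE; limma adjusted p = 0.0335). The ATPase subunits, shared by condensin I and II, were uneven. Smc2 had a KrasT change of -1.001 (limma adjusted p = 0.0853). Smc4 stood at 19.7, 6.80 and 13.8 FPKM untreated against 7.91, 10.6 and 10.4 FPKM treated in KrasT, so the groups overlapped, and its change was -0.34 with a limma adjusted p of 0.588. In MycT, Smc4 stood at 47.6 and 61.6 FPKM untreated against 10.5 and 10.3 FPKM treated. Its treated level was nearly the same in both models. Ncapd2, another condensin I subunit, also overlapped in KrasT, at 4.02, 3.14 and 2.48 FPKM against 2.24, 2.65 and 2.41 FPKM, and in MycT it stood at 40.7 and 14.0 FPKM against 2.13 and 5.48 FPKM. Ncapg, the remaining condensin I subunit, had the largest MycT change of the list, -2.91, and was too low in KrasT to be tested.

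The last list holds Mki67, Top2a and Hmgb2. Mki67, the Ki-67 proliferation antigen, stood at 5.72, 2.97 and 3.27 FPKM untreated against 2.01, 1.46 and 1.59 FPKM treated in KrasT. The groups did not overlap, but the change of -0.86 ± 0.29 (SE) had a limma adjusted p of 0.0899. In MycT, Mki67 stood at 28.7 and 14.1 FPKM untreated against 1.72 and 4.85 FPKM treated. Top2a, which untangles chromatids, had a KrasT change of -1.39 (limma adjusted p = 0.0667) and stood at 68.2 and 31.3 FPKM untreated against 2.13 and 6.97 FPKM treated in MycT. Hmgb2, a DNA-bending chromatin protein, was the most abundant member in all 4 groups. It stood at 48.8, 27.6 and 48.4 FPKM untreated against 10.9, 21.3 and 16.5 FPKM treated in KrasT, a change of -1.30 ± 0.35 (SE; limma adjusted p = 0.0472), and this call was lost whenever any library was left out. The MycT values were 744 and 724 FPKM untreated against 34.9 and 35.6 FPKM treated, a change of -4.34 ± 0.30 (SE; limma adjusted p = 0.0521). Replicates of Hmgb2 agreed closely in MycT.

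**Figure D4:**
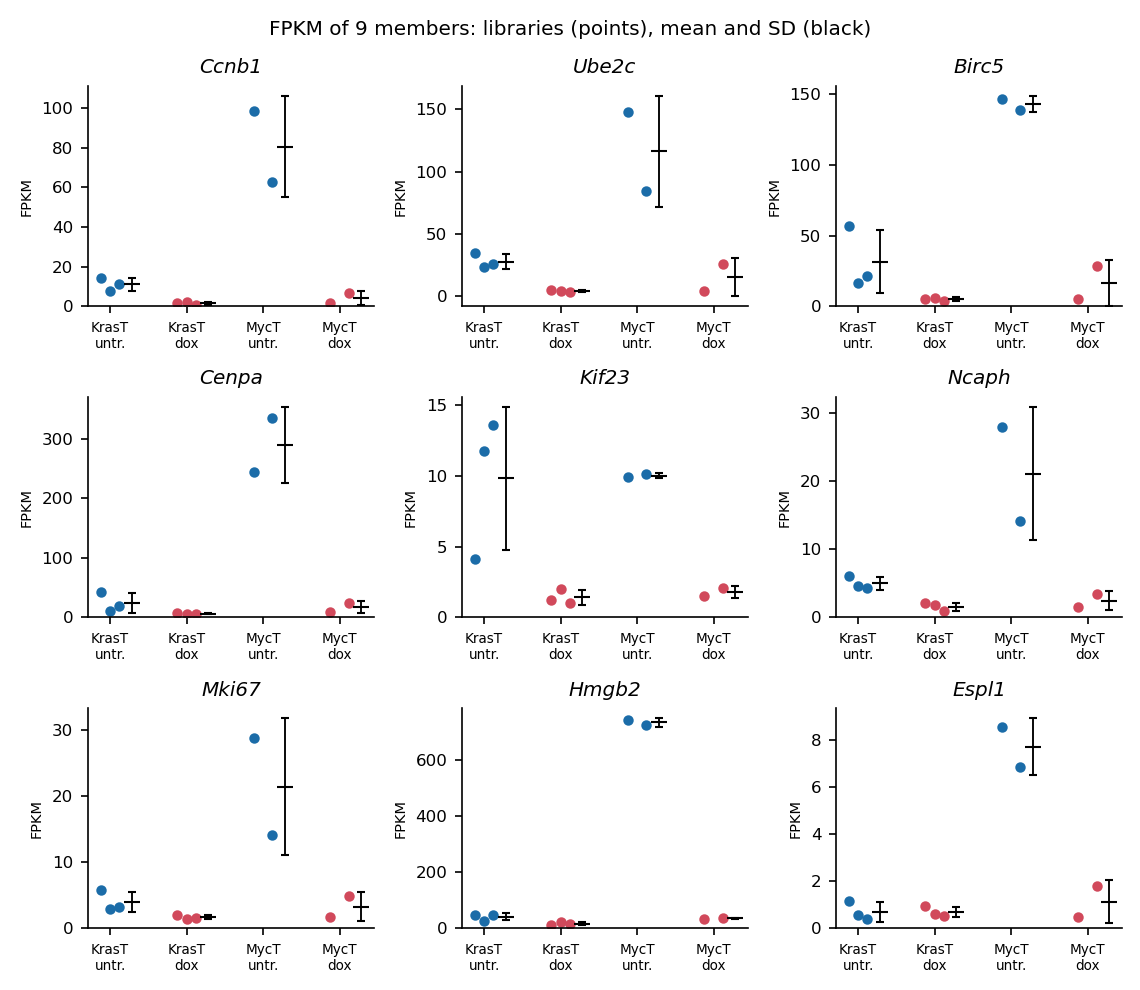
FPKM of 9 members from different sub-processes in each library (points; blue untreated, red doxycycline), with the mean and SD of each group in black. Ccnb1, Ube2c, Birc5, Cenpa, Ncaph, Mki67 and Hmgb2 have their highest points in untreated MycT tumours, Kif23 reaches similar untreated levels in both models, and Espl1 is low in all groups but untreated MycT.

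Whether the change differed between the models was asked with an interaction term in the joint fit, MycT change minus KrasT change. The difference was negative, meaning a larger drop in MycT, for 56 of 58 members and 50.3% of genes, and its median was -1.80. It was called for 0 of the 51 tested members by limma, where 0.24% of 12073 genes were called in either direction. An unadjusted p under 0.05 was found for 35 members, against 19.9% of all genes. The lowest adjusted p was that of Hmgb2, 0.0527, with a difference of -3.04 ± 0.49 (SE). It was followed by Kif11 at -2.73 ± 0.52 (SE; limma adjusted p = 0.0669), Cenpk at -2.47 ± 0.49 with 0.0689, Ect2 at -2.08 ± 0.48 with 0.0731 and Cenpn at -2.13 ± 0.51 with 0.0753. Without KrasT untreated library 1 the difference was called for 21 members, among them Hmgb2, Kif11, Cenpk, Ect2 and Cenpn, where 5.33% of genes had a called negative difference. Without the unnumbered MycT library it was called for 5 members, against 1.16%. The other fits without a single library called 0. Hmgb2 was the 1 member called with no filter on low values (0.253% of genes) and at a mean FPKM of at least 5 (0.154%). The kinetochore list had the most negative median difference, -2.20, and cytokinesis the least, -1.29. Pttg1 and Kif23 were the members with no negative difference, at 0.07 ± 0.66 (SE) and 0.05 ± 0.63 (SE). Both values turned negative in some alternatives, Kif23 to -0.037 under median-ratio scaling and to -0.12 under quantile normalization, so no direction is given for them. Across the 58 genes the changes in the 2 models were correlated with Pearson's r of 0.45 and Spearman's rho of 0.41, as a description over genes that share libraries.

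**Figure D5:**
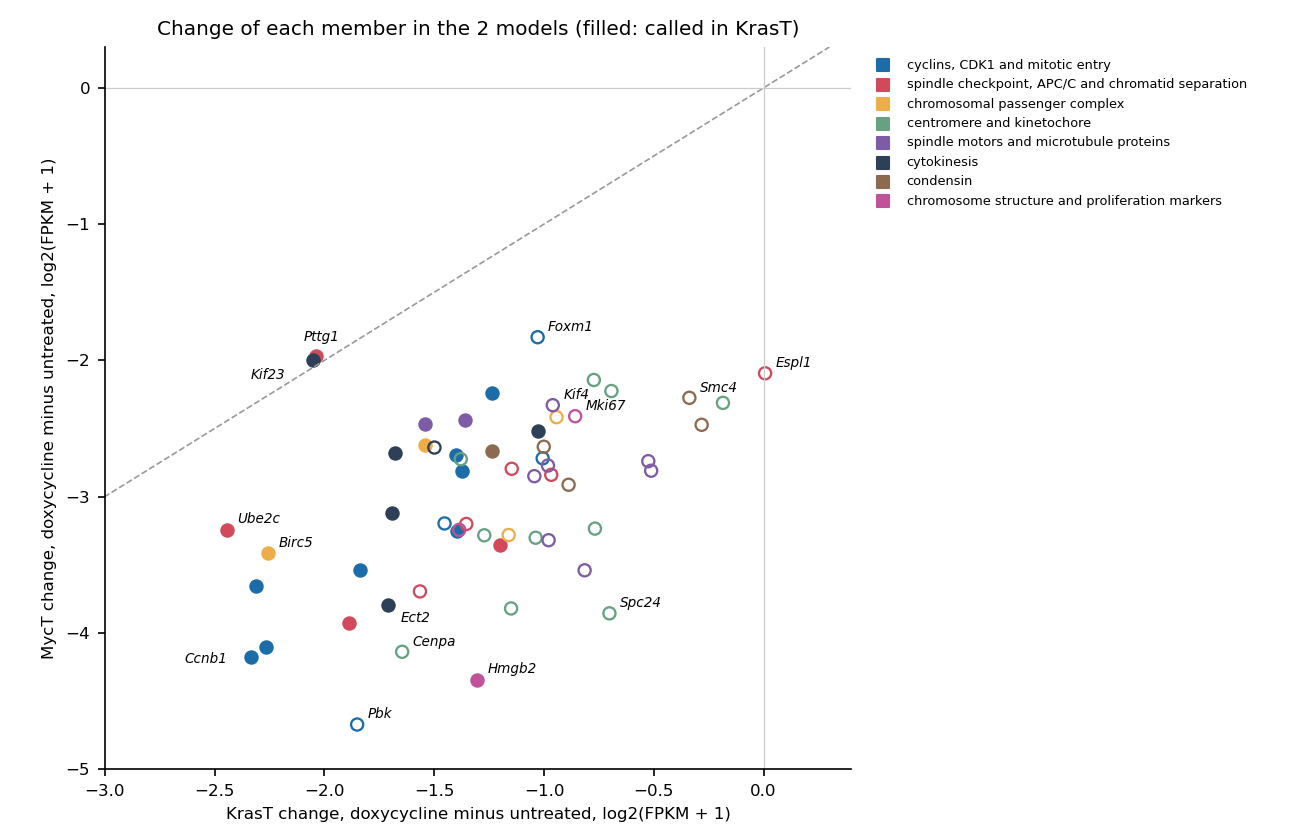
Change of each member (1 point each, log2(FPKM + 1), doxycycline minus untreated) in KrasT on the x axis and in MycT on the y axis; colour gives the sub-process, filled points were called in KrasT, and the dashed line marks equal changes. Apart from Pttg1 and Kif23, which lie at the line, the points lie below it.

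The tables were made separately, so levels are set across them only as a description. Untreated MycT tumours lay above untreated KrasT tumours without overlap for 55 of the 58 members, a pattern seen in 17.6% of 12073 genes. The median ratio of means was 6.08, from 1.02 for Kif23 to 17.6 for Hmgb2, and 0.838 over all genes. After doxycycline the corresponding count was 14 of 58, against 6.2% of genes, and the median ratio was 1.97. The highest members by mean in untreated KrasT were Hmgb2 at 41.6, Birc5 at 31.5 and Ube2c at 27.6 FPKM, with SDs of 12.1, 22.3 and 5.92 (n = 3). Their neighbours in this order did not differ beyond those SDs. In untreated MycT the order was Hmgb2 at 734, Cenpa at 289 and Birc5 at 143 FPKM, with SDs of 14.8, 63.6 and 5.66 (n = 2), and Hmgb2 and Cenpa each stood above the next by more than these SDs. In treated KrasT tumours the highest were Hmgb2 at 16.2, Smc4 at 9.64 and Cenpa at 5.93 FPKM. No member was listed at 0 in any library.

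A further 117 genes of mitosis, in 6 lists, surround the members in the same pathways. None was called higher in KrasT. The counts below stand beside 8.25% of all genes tested called lower, and shares near that are no result about a list. Of the 34 other centromere genes, 3 of 27 tested fell, among them Zwint at -1.54 and Cenpw at -1.53 (limma adjusted p = 0.0162 and 0.0301). Of 15 genes of the anaphase-promoting complex, 1 was called. It was Ube2s, which extends the ubiquitin chains and fell by 1.56 on the log2 scale (limma adjusted p = 0.0138). Of 11 tested cohesin genes, Rad21 and Wapal fell, at -1.18 and -1.03 (limma adjusted p = 0.0307 and 0.0485), Rad21 being the kleisin of cohesin and Wapal its release factor. The 3 genes particular to condensin II were not called, with Ncaph2 at -0.60 (limma adjusted p = 0.0893). Of 22 tested spindle and centrosome genes, 5 fell, among them Tacc3 at -1.56 and Kifc1 at -1.55 (limma adjusted p = 0.0417 and 0.0231). Of 18 tested entry genes, 5 fell, and the leading ones were the CDK-binding subunits Cks2 and Cks1b. Cks2 stood at 156, 42.5 and 59.7 FPKM untreated and 8.74, 13.04 and 7.43 FPKM treated in KrasT, a change of -2.83 ± 0.50 (SE; limma adjusted p = 0.0174), larger than that of any member.

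In MycT none of these lists had a gene called by the within-table limma test. In the joint fit, the counts called lower in MycT were 18 of 27, 5 of 15, 2 of 11, 3 of 3, 15 of 22 and 9 of 18, in the order above, where 12.3% of all genes were called lower. The genes with the lowest MycT p in each list were Oip5 at -4.01, a factor that loads CENP-A, Esco2 at -3.66, the cohesin acetyltransferase, Depdc1a at -3.65, Cks2 at -3.83, Fbxo5 at -3.02, an inhibitor of the anaphase-promoting complex, and Ncaph2 at -1.41. Zwint was at 22.7 to 32.8 FPKM in untreated and 7.604 to 9.60 FPKM in treated KrasT tumours, while in MycT it stood at 11.9 and 9.28 FPKM untreated and 9.71 and 9.01 FPKM treated. Its MycT change was -0.15 and turned to 0.044 under median-ratio scaling, so no direction is given.

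Markers of several other cell types moved with the same groups. The summed level of 8 fibroblast markers was 327 to 717 FPKM untreated and 3879 to 9121 FPKM treated in KrasT, with 7 of 8 called higher, where 8.46% of all genes tested were, and 36.6 to 452 FPKM against 1633 to 2341 FPKM in MycT. For 6 endothelial markers the sums were 11.8 to 24.8 FPKM against 61.9 to 136 FPKM in KrasT, with 5 of 6 called higher, and 6.90 to 28.4 FPKM against 51.7 to 95.8 FPKM in MycT. Macrophage, neutrophil, B cell, adipocyte and islet lists had 2 of 6, 2 of 3, 1 of 2, 3 of 4 and 2 of 6 tested genes called higher in KrasT, and acinar, T and NK cell, skeletal muscle and erythroid lists had none. All 6 T and NK cell markers were at 0 in at least 1 library, and their sum was 0 to 3.20 FPKM in untreated and 7.04 to 11.3 FPKM in treated KrasT tumours. The acinar sum ran from 25.2 to 391 FPKM in untreated and 143 to 16530 FPKM in treated KrasT tumours, a wide spread within each group. In MycT, limma within the table called 0 genes of these lists, where 5 of 12834 genes tested were called. The MycT sums of neutrophil, acinar, islet and erythroid markers overlapped between groups. Those of macrophage, T and NK cell, B cell, adipocyte and skeletal muscle markers were higher in both treated libraries than in both untreated ones. The part of these cells in the changes of the mitosis genes was not tested.

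Markers of ductal epithelium, the keratin-rich cell type that pancreatic ductal tumours resemble, were summed in the same way. Their sum over 10 genes was 5336 to 23050 FPKM untreated and 4498 to 7432 FPKM treated in KrasT, with overlapping groups. Krt8 and Krt18, 2 of the 10, were called lower, beside 8.25% of all genes tested. In KrasT 9 of the 10 changes were negative, with a median of -1.44, where 54.7% of all genes tested were negative. In MycT 1 of the 10 was negative, with a median of 1.78, where 48.4% of all genes tested were. The MycT sum was 493 to 1987 FPKM untreated against 2794 to 3324 FPKM treated. Limma called 0 of the 10 in that table, where 5 of 12834 genes tested were called. For the difference between models it also called 0, where 0.24% of genes were called. The joint fit called 1 of the 10 higher in MycT, beside 979 of 12073 genes. Relative to the 10-gene sum, the members stood at 0.129, 0.0138 and 0.030 in untreated and 0.0291, 0.0194 and 0.0186 in treated KrasT libraries, so the ratios overlapped. In MycT the ratios were 7.20 and 1.43 untreated and 0.0467 and 0.129 treated, without overlap. Relative to Krt8 and Krt18 alone, the members stood at 0.316, 0.0291 and 0.0687 in untreated and 0.759, 0.159 and 0.132 in treated KrasT libraries. These KrasT ratios overlapped too, but untreated libraries 2 and 3 lay below every treated one. Krt8 and Krt18 were themselves called lower in KrasT, so the denominator of this ratio fell as well. The MycT ratios to Krt8 and Krt18 were 10.3 and 7.92 untreated and 0.279 and 0.987 treated, without overlap.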

How the data were processed

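RNA from frozen tumour tissue of 10 mice was sequenced as TruSeq libraries on a HiSeq2000, per the labels' protocols. The authors deposited FPKM values per gene in 1 table for each model. The submitters' processing notes name cutadapt, TopHat and mm9. No source used here gives the quantifier, its annotation or its use of strand. Of 23951 rows in each table, 27 with symbols turned into dates were left out. The animal number in each column name tied it to a sample, except in the column called the unnumbered MycT library. Its number matches no title, so it was tied to its group only, and untreated MycT sample 1 was tied to no column. The labels do not say whether tumours of a group share a donor line, so p-values measure only the spread between these samples.

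Genes that reached 1 FPKM in 3 or more KrasT libraries, or in 2 or more MycT libraries, were tested on log2(FPKM + 1). The test was limma 3.58.1 (R 4.3.3) with a trended eBayes spread, two-sided, and Benjamini-Hochberg adjustment over all genes tested, at a threshold of 0.05. Exact permutation could not go below p = 0.1 with 3 against 3 or 0.333 with 2 against 2. An interaction term in a fit over both tables tested how the models differed. The steps were tested on simulated data. Alternatives were a pseudocount of 0.1, no filter, a minimum mean of 5 FPKM, quantile normalization, median-ratio scaling, an untrended spread, a joint fit, leaving out each library, and leaving out the libraries with Rn45s above 10000 FPKM. Members, lists and tests were chosen with earlier results of these data known. Values are given for a set of fixed members and, by sub-process and model, for the members with the largest and the smallest change, and for up to 2 called genes per other list, or the first by p where none was called. Promoter windows came from RefSeq on GRCm38.p6 and were matched by symbol. Overlaps and near-identical copies came from GENCODE vM21 on GRCm38; no coordinates of mm9 are given. Figures were drawn with matplotlib 3.10.9.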

Additional observations from a re-analysis of the deposited data

How the results depend on the processing

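Depth in reads is unknown, and 15 members were below 1 FPKM in every treated KrasT library, where the log2(FPKM + 1) scale compresses changes. With a pseudocount of 0.1 the median change of the 58 members was -1.78 in KrasT and -3.45 in MycT. The median stayed negative in every alternative run for both models and for their difference. No paired analysis was possible because every tumour has its own animal number in the labels, shared with no other. The causes of the shifts below were not tested.

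In KrasT, 2121 genes were called. The count was 1340 at a mean FPKM of at least 5, 1078 under quantile normalization, 1004 without the library with high Rn45s and 113 to 4223 when single libraries were left out. Called members, 23, became 14 with no filter, 10 of 20 tested at a mean of at least 5, 14 under median-ratio scaling, 37 under quantile normalization, 10 without the library with high Rn45s, and 0 to 31 without single libraries. In MycT, 5 genes were called, and 2463 in the joint fit, 10 at a mean of at least 5, 0 with no filter, 0 without the library with high Rn45s, and 0 in each fit without a single library. Called members went from 0 to 51 in the joint fit. For the difference, 29 genes were called, and 18 with a pseudocount of 0.1, 92 with no filter, 69 at a mean of at least 5, 17 under quantile normalization, 0 without the libraries with high Rn45s, and 0 to 1522 without single libraries. Hmgb2 was the 1 member called for the difference with no filter and at a mean of at least 5, and 0 to 21 members were called without single libraries.

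Some small uncalled changes turned sign. Fbxo5 in KrasT, 0.01, became -0.38 under quantile normalization and ranged from -0.43 to 0.67 without single libraries. Cenpn in KrasT ranged from -0.29 to 0.009, the latter without untreated library 1. Zwint in MycT became 0.044 under median-ratio scaling and ranged from -0.32 to 0.011. The difference of Kif23 became -0.037 under median-ratio scaling, -0.12 under quantile normalization, -0.16 without the libraries with high Rn45s and ranged from -0.23 to 0.53 without single libraries. That of Pttg1 became -0.56 without the libraries with high Rn45s and ranged from -0.39 to 0.53, and that of Ube2c ranged from -1.97 to 0.37, the latter without MycT doxycycline library 1.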
